A study of Mus musculus with 8 samples.

Results

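The genes described here encode the subunits of the mouse 26S proteasome, its activators and inhibitor, and the chaperones that put it together. They were found by symbol in the authors' deposited table (symbols beginning with *Psma* to *Psmg* followed by a number, plus *Adrm1*), leaving out the immunoproteasome genes *Psmb8* and *Psmb9*. This gave 46 genes out of 26894 with a symbol, measured by 89 of the 56605 probes. For each gene the probe with the highest mean over the 8 arrays was used. *Psme2* had no probe under that symbol and was not analysed here. Of the 46 genes, 44 were well above background on all 8 arrays and were tested. The exceptions were *Psma8*, the testis form of an alpha subunit, which was well above background on 2 arrays, and *Psmb11*, the thymus form of a catalytic subunit, which was well above background on none.

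The proteasome degrades proteins that carry ubiquitin chains. Its 20S core is a barrel of stacked rings, in which outer rings of alpha subunits gate the entrance and inner rings of beta subunits hold the caspase-like (*Psmb6*), trypsin-like (*Psmb7*) and chymotrypsin-like (*Psmb5*) sites. A 19S particle caps the core: ATPases in its base (*Psmc* genes) unfold the substrate, non-ATPase subunits of the base bind ubiquitin, and the lid removes the ubiquitin chain. Dedicated chaperones guide assembly and leave the finished particle. Interferon exchanges the catalytic subunits for *Psmb8*, *Psmb9* and *Psmb10*, and in cells that lack proteasome activity the factor NFE2L1 raises the subunit genes together. β-cells make large amounts of secretory protein and send misfolded proinsulin to the proteasome.

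RNA came from pancreatic islets of male βUCP2Tg mice (4 samples) and male WT littermates (4 samples), both on the C57BL6/J background; the study's methods give a young adult age for its islet donors, and the sample labels give none. βUCP2Tg mice carry the full-length mouse *Ucp2* cDNA behind a rat insulin promoter, so the transgene is meant to act in β-cells while the islet RNA comes from all islet cells. All islets had been kept for 8 h in culture medium with 200 mg/dL glucose. Whether a sample is 1 mouse or a pool was not settled, so n, SD and p refer to samples. In bulk islets, fewer cells of a type and less RNA per cell cannot be told apart.

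Cy3-labelled RNA of each sample was put on a separate Agilent array, whose 60-base probes bind the labelled transcripts. A level below is log2 of the background-subtracted intensity minus the 75th percentile of that array, so it is relative to the other transcripts of the same sample and does not compare different probes. Between 33191 and 36320 probes were well above background on an array. *Ucp2* checked the labels: its level was 7.71, 7.50, 7.33 and 6.99 on βUCP2Tg arrays 1 to 4 and 1.18, 0.92, 1.03 and 1.46 on WT arrays 1 to 4 (adjusted p = 9.32e-06, limma). All 4 βUCP2Tg arrays lay far above the WT arrays for this probe. A second, dimmer *Ucp2* probe also had every βUCP2Tg array above every WT array but differed by only 0.44 (SE 0.12, adjusted p = 0.0987, limma). βUCP2Tg 4 and WT 1 stood apart from their groups on 2 lists of stress genes. The mean level of 13 hypoxia-response genes was 0.89, 0.84, 0.90 and 2.29 on βUCP2Tg arrays 1 to 4 and 1.79, 2.63, 2.67 and 2.74 on WT arrays 1 to 4, and that of 10 heat-shock genes was 3.48, 3.51, 3.57 and 4.15 against 3.67, 4.49, 4.38 and 4.32. The summed level of 12 acinar genes (log2 of the sum of their relative intensities) was 4.11, 5.48, 4.42 and 7.99 on βUCP2Tg arrays 1 to 4 and 7.42, 8.35, 8.79 and 4.81 on WT arrays 1 to 4, so that βUCP2Tg 4 lay among the WT arrays and WT 4 among the βUCP2Tg arrays. That of 6 islet hormone genes ranged from 10.58 to 10.98 and from 10.78 to 10.92. The sum of 7 macrophage genes lay from 3.13 to 3.41 on the βUCP2Tg arrays and from 3.53 to 3.87 on the WT arrays, without overlap; of its genes *Cd14*, a receptor for bacterial lipopolysaccharide, was called lower (-2.10, adjusted p = 0.048, limma), while *C1qa*, a complement gene, lay entirely higher (0.66, adjusted p = 0.0823, limma). The part of these differences in the results below was not tested. WT arrays lay in 1 row of a single slide and βUCP2Tg arrays in the other, so position and genotype cannot be told apart.

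Proteasome genes were measured at closely similar levels in βUCP2Tg and WT islets. A gene was called at an adjusted p under 0.05 (limma, Benjamini-Hochberg over 35363 probes) and a change over 1.5-fold. No member was called in either direction, where 0.206% of all tested probes were called higher and 0.204% lower in βUCP2Tg. At an unadjusted p under 0.05, 1 of 44 members was higher (*Psmd9*) and 2 were lower (*Psmc6* and *Psmd14*). These were 2.27% and 4.55% of the members, against 9.99% higher and 15.2% lower over all tested probes, and against 12.9% higher and 11.6% lower when each gene is counted by its brightest probe only. The smallest adjusted p among the members was 0.0897 (*Psmd9*). Groups did not overlap for 2 members that were higher (*Psmd9* and *Psmg4*) and 3 that were lower (*Psmc4*, *Psmc6* and *Psmd14*), where 5.25% of all tested probes lay entirely higher and 7.17% entirely lower, or 6.36% and 6.74% of the brightest probes per gene. Each of these 5 had p = 0.0286 in a two-sided exact permutation test, the lowest value open to a comparison of 4 with 4 arrays.

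The intervals set a bound on the size of the differences. For 41 of the 44 members (93.2%) the 95% interval of the fold change lay inside 1.5-fold in both directions, as it did for 52.6% of all genes by their brightest probe. The intervals of *Psmb10* (0.712- to 2.98-fold), *Psme1* (0.712- to 1.87-fold) and *Psmb2* (0.650- to 1.08-fold) were wider. The median log2 fold change of the members was -0.02, with 20 members above 0 and 24 below, while the median was 0.03 over all genes by their brightest probe, with 9644 above 0 and 8213 below, and -0.02 over all tested probes. These signs turned with the scaling. The members' median was 0.05 under quantile normalization, with 31 above 0 and 13 below. After scaling to the median of each array it was 0.04, with 29 above and 15 below. With the mean of all tested probes of a gene, which takes in the dimmer probes, 14 members lay above 0 and 30 below. The signs thus went either way, and no shared direction is shown. The median size of a member's log2 fold change, regardless of sign, was 0.09, against 0.20 for all genes by their brightest probe. The SD over the 4 arrays of a group had a median of 0.11 among WT and 0.09 among βUCP2Tg arrays.

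**Figure D1:**
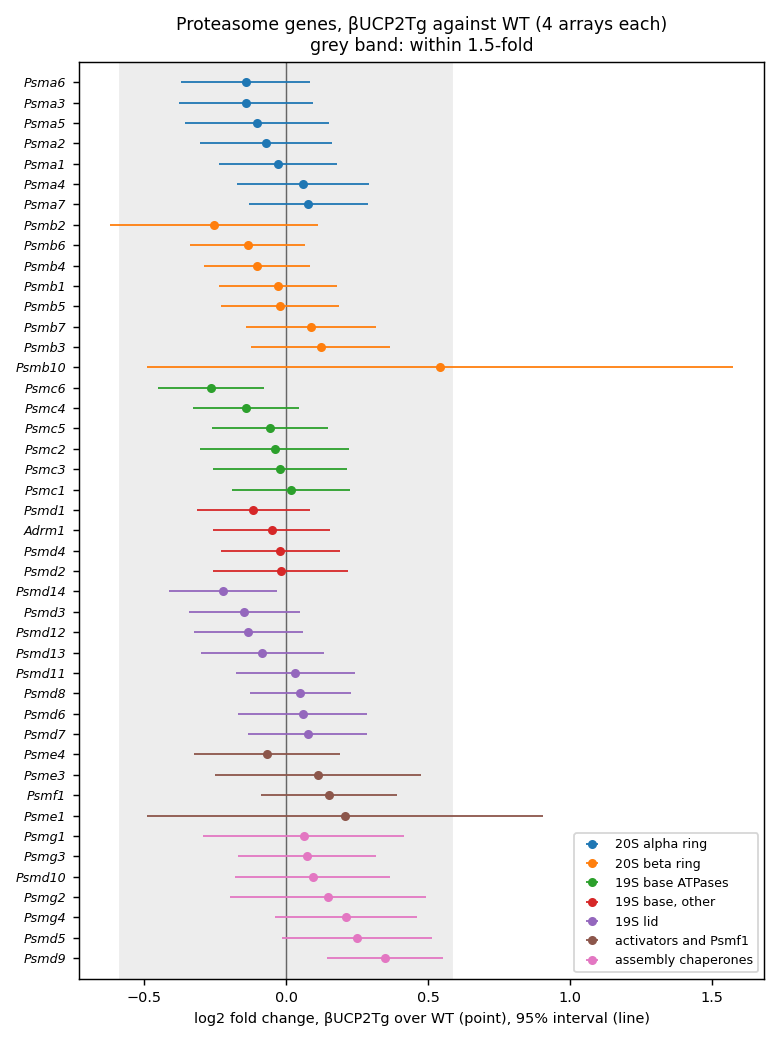
Log2 fold change of the 44 tested proteasome genes in βUCP2Tg over WT islets (x axis) with its 95% interval from limma, by gene (y axis) and coloured by the part of the complex. The intervals lie inside the grey 1.5-fold band except those of *Psmb10*, *Psme1* and *Psmb2*. All 7 assembly chaperones among the members lie to the right of 0.

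The 7 tested alpha subunits, which form the outer rings of the core, had log2 fold changes from -0.14 to 0.08, 2 above 0 and 5 below, with unadjusted p of 0.187 or more. Under quantile normalization 4 lay above 0 and 3 below, and *Psma7* was at 0.20 (unadjusted p = 0.0315, adjusted p = 0.163, limma). The lowest of them were *Psma6* and *Psma3*. *Psma6* measured 4.39, 4.51, 4.36 and 4.38 on βUCP2Tg arrays 1 to 4 and 4.37, 4.72, 4.53 and 4.58 on WT arrays 1 to 4 (log2 fold change -0.14, SE 0.10). *Psma3* measured 5.02, 5.20, 5.10 and 5.25 against 5.08, 5.36, 5.37 and 5.32 (-0.14, SE 0.10). In both genes WT 1 lay among the βUCP2Tg arrays, and the other WT arrays lay above every βUCP2Tg array.

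Among the 8 tested beta subunits, the constitutive catalytic ones stayed close to 0. *Psmb5*, the chymotrypsin-like subunit, measured 2.93, 3.02, 2.89 and 2.80 on the βUCP2Tg arrays and 2.98, 2.86, 2.86 and 3.04 on the WT arrays (log2 fold change -0.02, 95% interval -0.23 to 0.19). *Psmb6*, the caspase-like subunit, measured 5.44, 5.61, 5.42 and 5.42 in βUCP2Tg against 5.51, 5.62, 5.61 and 5.69 in WT (-0.14, -0.34 to 0.07). *Psmb7*, the trypsin-like subunit, measured 2.22, 2.36, 2.37 and 2.25 in βUCP2Tg against 2.18, 2.03, 2.29 and 2.36 in WT (0.09, -0.14 to 0.32). The groups overlapped for all 3, and in *Psmb6* the array βUCP2Tg 2 lay well above the other βUCP2Tg arrays. Of the 8 beta subunits 3 lay above 0 here, and 7 under quantile normalization. *Psmb2*, a non-catalytic ring subunit, measured 0.56, 0.34, 0.42 and 0.61 in βUCP2Tg against 0.96, 0.91, 0.80 and 0.28 in WT (-0.26, SE 0.16). WT 4 lay below all βUCP2Tg arrays for this probe, while the other WT arrays lay above them. Without WT 4 the value was -0.41 (unadjusted p = 0.00605, adjusted p = 0.113, limma). This probe, the brightest of *Psmb2*, has no description on the array. The remaining 2 probes of *Psmb2*, both named for the RefSeq mRNA, gave -0.04 and -0.06. The other beta subunits, *Psmb1*, *Psmb3* and *Psmb4*, had log2 fold changes of -0.03, 0.12 and -0.10. *Psmb11* (levels -8.15 to -7.63 in βUCP2Tg, -8.26 to -6.93 in WT) and *Psma8* (-6.97 to -5.41 and -7.44 to -5.28) were at background on most or all arrays and give no comparison.

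*Psmb10*, the interferon-inducible counterpart of *Psmb7*, had the widest range of the tested members. It measured 5.62, 6.49, 6.07 and 6.12 on βUCP2Tg arrays 1 to 4 and 4.40, 6.46, 6.24 and 5.03 on WT arrays 1 to 4. WT 1 and WT 4 were the lowest of the 8 arrays, WT 2 and WT 3 lay within the range of the βUCP2Tg arrays, and the range over all arrays was 4.26-fold. The log2 fold change was 0.54 (SE 0.45, adjusted p = 0.477, limma), and the groups overlapped; without WT 1 it was 0.17. *Psme1*, a subunit of the interferon-inducible 11S activator, measured 4.20, 4.88, 4.60 and 4.78 in βUCP2Tg and 3.67, 5.03, 4.82 and 4.12 in WT (0.21, SE 0.30). *Psme3*, which forms the related nuclear activator, measured 2.47, 2.71, 2.55 and 2.53 in βUCP2Tg against 2.09, 2.78, 2.63 and 2.30 in WT (0.11, SE 0.16). For *Psmb10*, *Psme1* and *Psme3* alike, WT 1 was the lowest array, WT 4 the next and βUCP2Tg 1 the third. Without WT 1 the log2 fold changes of *Psme1* and *Psme3* turned to -0.04 and -0.01, so their direction rests on that array. The same order held at the low end for the genes left out of the set: *Psmb8* measured 2.88, 3.93, 3.60 and 3.95 in βUCP2Tg and 1.54, 4.20, 4.14 and 2.46 in WT, and *Psmb9* measured 2.75, 3.65, 3.57 and 3.59 against 1.16, 3.80, 3.49 and 1.98. Neither was called (adjusted p = 0.626 and 0.413, limma).

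**Figure D2:**
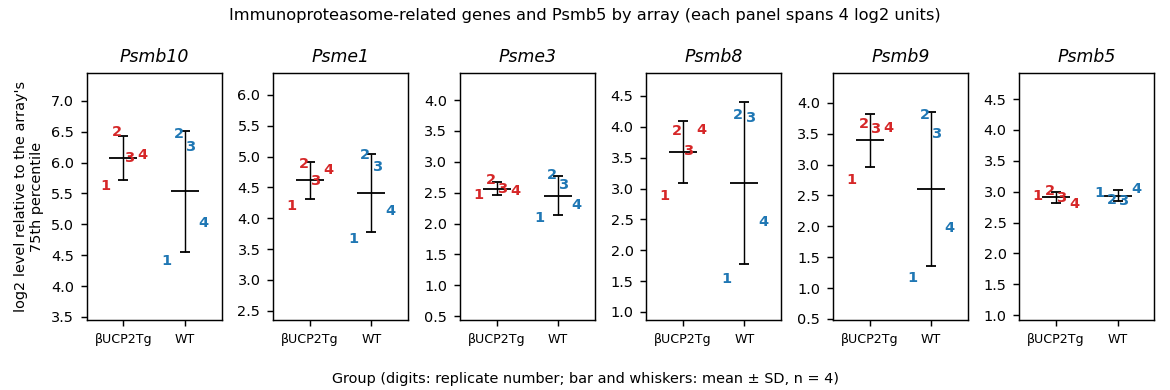
Relative log2 level (y axis, 4 units in every panel) of *Psmb10*, *Psme1*, *Psme3*, *Psmb8*, *Psmb9* and the constitutive *Psmb5* in βUCP2Tg and WT islets; digits are replicate numbers, and bars and whiskers show mean ± SD (n = 4). In the first 5 panels WT 1 and WT 4 are the lowest points, at 4.40 and 5.03 for *Psmb10*, while *Psmb5* differs little between arrays.

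The 6 base ATPases had log2 fold changes from -0.26 to 0.02, 5 of them below 0. Under quantile normalization 3 of the 6 lay below 0, and after scaling to the median of each array 2 of the 6. All 6 lay below 0 with the mean of all tested probes of a gene, without βUCP2Tg 2 and without WT 2. The direction depends on the setting, so a shared direction is not shown. *Psmc6* was the lowest of all members. It measured 4.0, 3.99, 3.95 and 4.09 on the βUCP2Tg arrays and 4.22, 4.34, 4.21 and 4.32 on the WT arrays, and every βUCP2Tg array lay below every WT array. The log2 fold change was -0.26 (SE 0.08, 95% interval -0.45 to -0.08, adjusted p = 0.114, limma), which did not pass the adjusted threshold. With normexp background correction it did, at -0.26 (adjusted p = 0.0476, limma), still under 1.5-fold. With that correction 19.7% of all genes by their brightest probe were lower at an unadjusted p under 0.05, against 11.6% without it. Its second probe gave -0.16 (SE 0.10). *Psmc4* measured 2.78, 2.80, 2.83 and 2.81 against 2.91, 2.96, 2.86 and 3.06 (-0.14, SE 0.08), again with no overlap, and its second probe gave -0.08. *Psmc5*, by contrast, measured 3.14, 3.27, 3.37 and 3.22 in βUCP2Tg against 3.23, 3.36, 3.26 and 3.38 in WT (-0.06, SE 0.09), with overlapping groups.

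The remaining base subunits hold the ubiquitin receptors *Psmd4* and *Adrm1* and the scaffolds *Psmd1* and *Psmd2*. *Psmd4* measured 4.78, 4.82, 4.67 and 4.58 in βUCP2Tg and 4.63, 4.76, 4.74 and 4.80 in WT (-0.02, 95% interval -0.23 to 0.19). *Adrm1* measured 2.46, 2.37, 2.32 and 2.20 in βUCP2Tg against 2.44, 2.36, 2.31 and 2.44 in WT (-0.05, -0.26 to 0.16). *Psmd2* measured 3.73, 3.83, 3.76 and 3.63 in βUCP2Tg against 3.58, 3.67, 3.85 and 3.93 in WT (-0.02, -0.26 to 0.22). The groups overlapped throughout, and *Psmd1* had a log2 fold change of -0.12 (SE 0.09).

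Of the 8 lid subunits, 4 lay above 0 and 4 below, from -0.22 to 0.08. *Psmd14*, the enzyme that cuts the ubiquitin chain from the substrate, was the lowest. It measured 2.91, 2.95, 2.92 and 2.88 on the βUCP2Tg arrays and 3.05, 3.18, 3.08 and 3.25 on the WT arrays, with no overlap (log2 fold change -0.22, SE 0.08, adjusted p = 0.154, limma). A second *Psmd14* probe, also described by the RefSeq mRNA but with another sequence, measured 0.27, 0.31, 0.53 and 0.43 in βUCP2Tg against 0.49, 0.54, 0.77 and 0.73 in WT, which gave -0.25 (SE 0.11), a difference of like size. *Psmd3*, a lid scaffold, measured 5.09, 5.22, 5.14 and 5.03 in βUCP2Tg against 5.27, 5.24, 5.20 and 5.36 in WT (-0.15, SE 0.09).

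The probes behind the members at an unadjusted p under 0.05 are shown as printed on the array, 5′ to 3′, so that the measured stretch can be placed; none shares 16 bases in a row with a probe of another gene.
*Psmd9*, A_55_P1985758: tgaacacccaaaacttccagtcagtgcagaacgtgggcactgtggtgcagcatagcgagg
*Psmc6*, A_52_P617186: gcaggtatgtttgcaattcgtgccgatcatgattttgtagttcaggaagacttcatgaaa
*Psmd14*, A_55_P2499383: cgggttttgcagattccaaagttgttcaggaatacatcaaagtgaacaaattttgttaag
*Psmd14*, second probe A_52_P652212: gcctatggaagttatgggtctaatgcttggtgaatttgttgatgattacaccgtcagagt

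**Figure D3:**
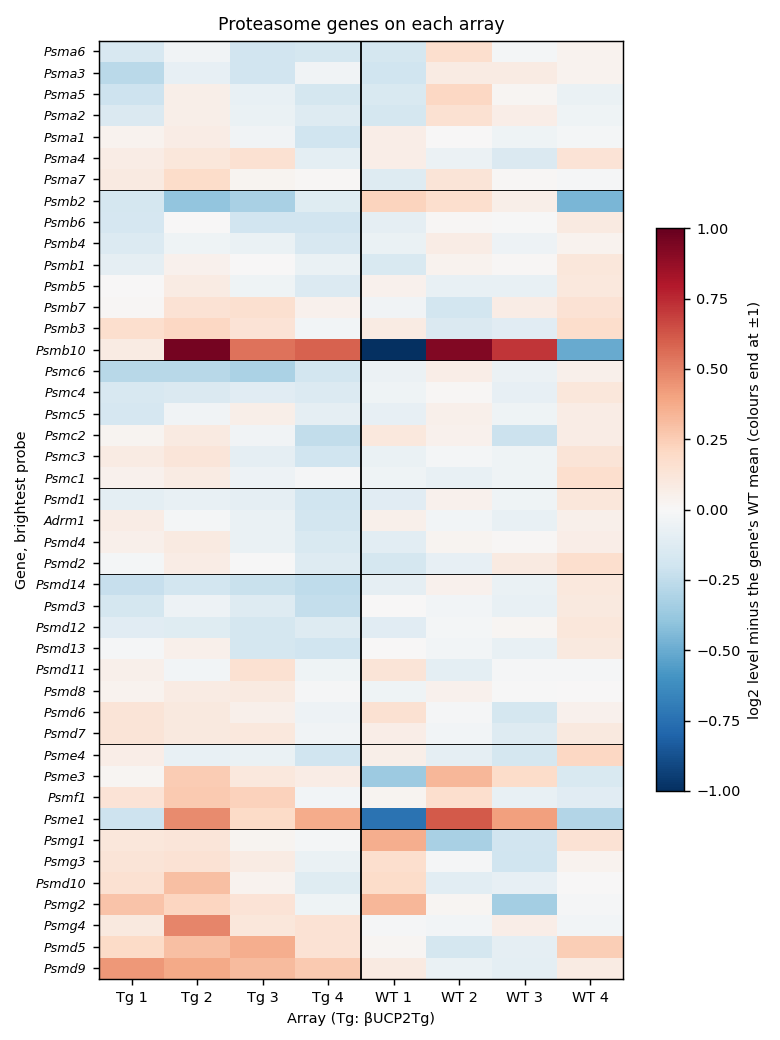
Level of each tested proteasome gene (rows, brightest probe) on each array (columns) as log2 difference from the WT mean of that gene, with a black line between βUCP2Tg and WT and thin lines between parts of the complex. The rows of *Psmb10* and *Psme1* carry the strongest colours, lowest on WT 1, and *Psmd9* is above its WT mean on all 4 βUCP2Tg arrays.

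Among activators and inhibitors other than *Psme1* and *Psme3*, *Psme4*, the large nuclear activator, measured 3.81, 3.67, 3.68 and 3.54 in βUCP2Tg and 3.80, 3.65, 3.56 and 3.94 in WT (-0.07, SE 0.11). *Psmf1*, which encodes the inhibitor PI31, measured 1.83, 1.95, 1.92 and 1.67 in βUCP2Tg against 1.72, 1.86, 1.62 and 1.58 in WT (0.15, SE 0.11). The groups overlapped for both.

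The 7 assembly chaperones among the members had a median log2 fold change of 0.15, and all lay between 0.06 and 0.35. *Pomp*, the maturation factor of the core, falls outside the symbol rule and was at -0.11 (SE 0.12). The 4 activators and inhibitors had a median of 0.13, but -0.02 without WT 1 and -0.17 with the mean of all tested probes (-0.09 with the mean of probes above background on all 8 arrays), and the medians of the other classes ran from -0.07 to -0.03. Those others lay from 0.01 to 0.05 under quantile normalization and from -0.01 to 0.03 after scaling to the median. The order of these first 2 classes was turned under normexp, without βUCP2Tg 1, without WT 2 and without WT 3, and the chaperone median was 0.06 without WT 3 and 0.10 without βUCP2Tg 1. Only *Psmd9* had an unadjusted p under 0.05. The signs were kept under each of the other scalings tried, but *Psmg2* and *Psmg3* lay below 0 when the probes of a gene were averaged (5 of the 7 above 0, median 0.10), *Psmg1* was at -0.05 without WT 2 and at -0.0021 without WT 3, and the median deviation of the class from the WT means was 0.15, 0.30, 0.11 and -0.02 on βUCP2Tg arrays 1 to 4 and 0.17, -0.07, -0.10 and 0.04 on WT arrays 1 to 4. WT 1 thus lay with the βUCP2Tg arrays and βUCP2Tg 4 with the WT arrays.

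*Psmd9* (p27), *Psmd5* (S5B) and *Psmd10* (gankyrin) escort the base ATPases. *Psmd9* measured -0.89, -0.94, -1.01 and -1.06 on the βUCP2Tg arrays and -1.24, -1.39, -1.42 and -1.24 on the WT arrays, with no overlap. Its log2 fold change was 0.35 (SE 0.09, 95% interval 0.14 to 0.55, 1.27-fold), with an unadjusted p of 0.00415 and an adjusted p of 0.0897 by limma. With normexp background correction it was 0.23 (adjusted p = 0.0709, limma). Without WT 1 it was 0.38 with an adjusted p of 0.0359 by limma, still under 1.5-fold. In that setting 21.3% of all genes by their brightest probe were higher at an unadjusted p under 0.05, against 12.9% with all arrays. *Psmd5* measured 0.47, 0.58, 0.64 and 0.42 in βUCP2Tg against 0.30, 0.10, 0.18 and 0.52 in WT (0.25, SE 0.12), with WT 4 among the βUCP2Tg arrays. *Psmd10* measured 1.93, 2.09, 1.82 and 1.66 in βUCP2Tg against 1.97, 1.67, 1.70 and 1.79 in WT (0.09, SE 0.12), with WT 1 above 3 of the βUCP2Tg arrays.

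*Psmg1* to *Psmg4* (PAC1 to PAC4) assemble the alpha ring. *Psmg1* measured 3.20, 3.21, 3.12 and 3.07 in βUCP2Tg and 3.46, 2.76, 2.90 and 3.24 in WT (0.06, SE 0.15), and the WT arrays alone spanned the whole range. *Psmg2* measured 1.95, 1.88, 1.80 and 1.62 in βUCP2Tg against 2.0, 1.69, 1.32 and 1.66 in WT (0.15, SE 0.15), and *Psmg3* measured 1.15, 1.17, 1.11 and 0.95 in βUCP2Tg against 1.19, 1.01, 0.82 and 1.06 in WT (0.07, SE 0.11). WT 1 was the highest of all arrays for each of these 3 genes. *Psmg4* measured 0.50, 0.89, 0.51 and 0.54 in βUCP2Tg against 0.39, 0.37, 0.47 and 0.37 in WT (0.21, SE 0.11, adjusted p = 0.265, limma). The groups did not overlap, but βUCP2Tg 2 lay well above the rest of its group, whose lowest value of 0.50 was close to the highest WT value of 0.47. The dimmer probes of *Psmg2* and *Psmg3*, which no RefSeq mRNA describes, had values of the other sign, -0.21 and -0.22.

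The other probes of the members were examined by their description on the array. Besides the 44 brightest probes, 39 dimmer probes of the members were tested. For 25 of them the array's description names a RefSeq mRNA; these had a median log2 fold change of -0.04, and 2 had an unadjusted p under 0.05, both lower. For the other 14 the description names an Ensembl transcript or another sequence entry, or is empty. A *Psmf1* probe and a *Psme4* probe among them were not above background on every array. The other 12 all lay below 0, from -0.73 to -0.09 with a median of -0.29, and 6 of them had an unadjusted p under 0.05, while the brightest probes of those 6 genes lay between -0.14 and 0.15. The contrast did not hold in each gene: the *Psmc6* probe of this kind gave -0.16, nearer 0 than the brightest *Psmc6* probe at -0.26, and that of *Psmc1* gave -0.09 (SE 0.10). The division by description was made after the values had been seen and is given as counts only. Over all genes on the array the same kinds of probe differed in the same way: among dimmer probes above background on all 8 arrays, the 3549 without a RefSeq mRNA had a median of -0.25, and 30.4% were lower and 3.66% higher at an unadjusted p under 0.05, against 16.1% and 10.0% of the 7287 with one. Whether the members differ from other genes in this was not tested, nor was a cause.

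**Figure D4:**
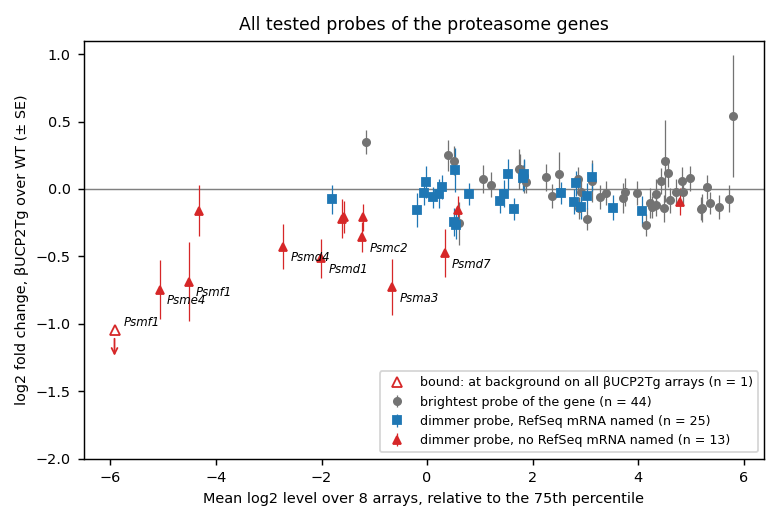
Log2 fold change (y axis, ± SE) against mean relative log2 level over 8 arrays (x axis) for the 83 tested probes of the proteasome genes; grey circles are the brightest probes, blue squares dimmer probes described by a RefSeq mRNA and red triangles dimmer probes without one. The open triangle with an arrow is a *Psmf1* probe at background on all βUCP2Tg arrays, drawn at its bound of 1.04 log2 units below 0. The filled red triangles lie below 0, from -0.75 for a *Psme4* probe to -0.09 for a *Psmc1* probe.

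*Psmf1*, *Psma3* and *Psmd1* are examples chosen after their values were seen. For *Psmf1*, a probe described by the RefSeq mRNA (A_52_P66313) measured -0.13, 0.11, 0.07 and -0.05 in βUCP2Tg and -0.30, 0.13, -0.03 and 0.01 in WT (0.05, SE 0.12). A probe described by another sequence entry (A_66_P120883) measured -5.02, -5.26, -4.97 and -4.18 in βUCP2Tg and -4.64, -4.51, -3.75 and -3.79 in WT (-0.69, SE 0.29), with overlapping groups. A further *Psmf1* probe, described only by an Ensembl transcript (A_55_P2720381), measured -7.19, -7.81, -6.08 and -7.35 in βUCP2Tg against -3.65, -5.20, -4.91 and -5.21 in WT. It was well above background on all 4 WT arrays and on no βUCP2Tg array, so that the fold is a bound: at least 2.06-fold higher in WT. The probe passed the filter through the WT arrays alone, so its direction was fixed by the filter and supports nothing. For *Psma3*, the RefSeq probe A_55_P2738773 gave -0.14 (SE 0.08) and the Ensembl probe A_55_P2719299 gave -0.73 (SE 0.21), with levels of -1.12, -1.20, -1.14 and -0.63 in βUCP2Tg and -0.66, -0.01, 0.06 and -0.58 in WT. For *Psmd1*, the 3 RefSeq probes gave -0.12, -0.16 and -0.04 (A_52_P49727) and the Ensembl probe A_55_P2720274 gave -0.52 (SE 0.15), and the βUCP2Tg arrays of the latter (-2.16, -2.55, -2.34 and -2.02) all lay below the WT arrays (-1.79, -1.55, -1.66 and -2.0). The *Psmd2* probe A_55_P2848371 was an exception to the division, since it is described by the RefSeq mRNA and gave -0.27 (SE 0.10), while the brightest *Psmd2* probe gave -0.02.

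These pairs are shown to let the measured stretches be compared, 5′ to 3′; capitals mark bases that lie in a run of 16 or more shared with a probe that carries another gene's symbol.
*Psmf1*, RefSeq mRNA, A_52_P66313: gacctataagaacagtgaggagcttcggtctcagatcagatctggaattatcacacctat
*Psmf1*, other sequence entry, A_66_P120883: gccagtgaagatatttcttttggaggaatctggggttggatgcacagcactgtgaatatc
*Psma3*, RefSeq mRNA, A_55_P2738773: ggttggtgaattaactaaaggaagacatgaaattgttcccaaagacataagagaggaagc
*Psma3*, Ensembl transcript, A_55_P2719299: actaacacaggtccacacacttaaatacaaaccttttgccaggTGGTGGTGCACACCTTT
*Psmd1*, RefSeq mRNA, A_52_P49727: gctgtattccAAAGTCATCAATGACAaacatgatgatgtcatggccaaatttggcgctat
*Psmd1*, Ensembl transcript, A_55_P2720274: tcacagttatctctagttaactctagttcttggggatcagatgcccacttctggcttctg
Shared runs were no mark of the second kind: they occurred in 10 of the 68 tested member probes with a RefSeq mRNA and in 3 of the 15 without one. No genome was at hand to place the probes on exons or introns.

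Around the proteasome, none of 37 tested genes was called, out of 38 with a probe; 1 was higher and 5 lower at an unadjusted p under 0.05, against 12.9% higher and 11.6% lower over all genes by their brightest probe. *Pomp*, the maturation factor of the core, measured 5.35, 5.65, 5.50 and 5.55 in βUCP2Tg and 5.34, 5.78, 5.72 and 5.67 in WT (-0.11, SE 0.12). The deubiquitinases *Usp14* and *Uchl5* gave -0.09 (SE 0.08) and -0.06 (SE 0.12), and the groups of *Usp14* did not overlap. In the list of proteasome partners (12 tested) the largest differences were those of *Zfand2a*, a heat-inducible proteasome-associated zinc finger gene, at -0.43 (SE 0.14, adjusted p = 0.116, limma), and *Pithd1* at 0.33 (SE 0.15). *Zfand2a* levels of 2.45, 2.62, 2.65 and 2.69 on the βUCP2Tg arrays all lay below the 2.78, 3.22, 2.87 and 3.27 on the WT arrays.

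Of the 14 tested genes that control proteasome genes, *Nfe2l1*, the factor that raises the subunit genes when proteasome activity is short, measured 4.84, 4.85, 4.73 and 4.33 in βUCP2Tg against 4.89, 4.66, 4.34 and 4.47 in WT (0.10, SE 0.16), with overlapping groups. The largest differences in this list were those of *Maff* and *Mafk*, small Maf genes whose products pair with NFE2L1 and NFE2L2 on DNA. *Nfyb*, a subunit of the CCAAT-binding factor NF-Y, came next at -0.53 (SE 0.16, adjusted p = 0.114, limma), while its partner *Nfya* was at 0.36 (SE 0.15, adjusted p = 0.185, limma) and was the 1 gene higher at an unadjusted p under 0.05. The small Maf gene *Mafg* measured 4.37, 4.36, 4.34 and 4.70 in βUCP2Tg and 4.97, 5.13, 4.87 and 4.81 in WT (-0.50, SE 0.12, adjusted p = 0.0845, limma), with every βUCP2Tg array below every WT array. *Maff* measured 0.45, 0.51, 0.52 and 1.40 in βUCP2Tg and 0.67, 2.59, 2.35 and 2.20 in WT (-1.23, SE 0.42, adjusted p = 0.134, limma), and *Mafk* 0.69, 0.81, 0.72 and 1.02 in βUCP2Tg against 0.37, 2.15, 1.82 and 1.08 in WT (-0.54, SE 0.35, adjusted p = 0.36, limma). WT 1 had the lowest WT levels of *Maff* and *Mafk*, and βUCP2Tg 4 the highest of its group, as for the hypoxia and heat-shock lists above; whether these move together for a shared reason was not tested. Without WT 1 *Maff* and *Mafk* were called, at -1.66 (adjusted p = 0.0149, limma) and -0.87 (adjusted p = 0.0485, limma), together with *Nfyb* at -0.62 (adjusted p = 0.0403, limma); without βUCP2Tg 4, *Mafg* alone was called, at -0.59 (adjusted p = 0.0356, limma). These were 3 and 1 of the genes around the proteasome, where 4.55% of all genes by their brightest probe were called lower and 6.89% higher without WT 1, and 2.14% lower and 1.38% higher without βUCP2Tg 4. Calls rose across the whole array in both cases, so they show nothing particular to these genes. Of 11 tested ubiquitin and shuttle genes, *Ubb*, a ubiquitin gene, gave -0.20 (SE 0.10). The shuttle factors *Ubqln1* and *Ubqln2*, which carry ubiquitinated proteins to the proteasome, gave -0.29 (SE 0.10) and 0.27 (SE 0.14), in opposite directions.

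Promoter windows from RefSeq (GRCm38.p6; 250 bases before the start to 50 after) were at hand for 38 of the 46 genes and 27025 genes in all, and were searched on both strands. The antioxidant response element core TGACNNNGC, bound by NFE2L1 and NFE2L2 with small Maf proteins, occurred in 7 of the 38 (18.4%) and in 14.0% of all genes. Its looser form TGANNNNGC, of which the first motif is a special case, occurred in 21 (55.3%) and 45.0%, the NF-Y box CCAAT in 14 (36.8%) and 41.1%, and the GC box GGGCGG in 22 (57.9%) and 38.2%. A match is a description of letters and no evidence of binding. The 3 members at an unadjusted p under 0.05 have the following 250 bases before the start, gene strand, 5′ to 3′, with matches to any of these motifs in capitals.
*Psmd9*, chr5:123227940-123228189, plus strand: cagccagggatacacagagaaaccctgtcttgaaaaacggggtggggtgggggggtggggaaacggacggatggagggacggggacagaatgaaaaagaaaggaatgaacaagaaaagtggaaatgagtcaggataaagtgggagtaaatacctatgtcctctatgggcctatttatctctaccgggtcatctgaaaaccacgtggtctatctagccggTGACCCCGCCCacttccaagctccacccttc
*Psmc6*, chr14:45329574-45329823, plus strand: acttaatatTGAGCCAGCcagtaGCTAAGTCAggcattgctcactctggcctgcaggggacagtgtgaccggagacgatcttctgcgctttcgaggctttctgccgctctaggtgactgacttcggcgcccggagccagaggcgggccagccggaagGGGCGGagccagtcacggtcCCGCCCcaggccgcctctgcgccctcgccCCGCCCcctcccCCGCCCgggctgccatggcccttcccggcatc
*Psmd14*, chr2:61711444-61711693, plus strand: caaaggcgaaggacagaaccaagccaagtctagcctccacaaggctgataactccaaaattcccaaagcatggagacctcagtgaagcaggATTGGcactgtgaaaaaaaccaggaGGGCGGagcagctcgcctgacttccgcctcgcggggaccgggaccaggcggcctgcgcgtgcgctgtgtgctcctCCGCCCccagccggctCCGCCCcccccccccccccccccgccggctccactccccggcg
The *Psmd9* window held a core match that runs into a GC box, the *Psmc6* window a core match, a looser match and 4 GC boxes, and the *Psmd14* window a CCAAT match and 3 GC boxes.

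Without βUCP2Tg 4 and WT 1, the arrays that stood apart on the hypoxia and heat-shock lists, still no member was called, where 9.22% of all genes by their brightest probe were called higher and 6.46% lower. *Psmc6* (-0.31, adjusted p = 0.0464, limma) and *Psmd9* (0.41, adjusted p = 0.0287, limma) then passed the adjusted p but not 1.5-fold. In this setting 23.8% of all genes by their brightest probe were higher and 16.5% lower at an unadjusted p under 0.05. The share past the adjusted p alone was not counted, so the passes are not read as a result about either gene. The groups of 3 against 3 arrays did not overlap for 7 members that were higher, 5 of them assembly chaperones, and for 7 that were lower. These were 15.9% and 15.9% of the members, against 27.3% and 19.3% of all genes by their brightest probe. The arrays left out were those that ran against the chaperone class, so the 5 chaperones are not read as a result about that class.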

How the data were processed

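Islet RNA of 4 βUCP2Tg and 4 WT samples, grouped by the sample titles, was measured on one-colour Agilent arrays. The authors made the deposited spot intensities with Agilent Feature Extraction (version 10.7.3.1 per the file headers, 9.1 in the submitters' processing notes), with background subtraction and no scaling between arrays. The deposited table holds normalized log2 values, which the authors had shifted to the 75th percentile of each array, and the authors' fold changes and p-values, which were not used. Here control and outlier spots were left out, log2 intensities were centred on each array's 75th percentile, and a probe took the mean of its spots. Probes with at least 50% of spots well above background on at least 4 of 8 arrays were tested with limma 3.58.1 (lmFit, eBayes; R 4.3.3). Single genes had two-sided exact permutation tests. The fit was tested on simulated data. The number of arrays limits the precision.

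The members, the gene lists and the named genes were chosen with earlier results of these data known. Values on every array are given for the 6 members with the highest and the 6 with the lowest log2 fold change and for members fixed by role (catalytic and tissue-specific subunits, ubiquitin receptors and scaffolds, activators, chaperones); of each list around the proteasome, the 2 largest differences and genes fixed by role are given, except 1 gene that is not reported here. *Psmc4*, the dimmer probes, *Mafg*, *Nfyb*, *Nfya*, *Cd14* and *C1qa* were added after their values were seen. Symbols are those of the deposited table, and 8 names of the other lists, most of them synonyms, had no probe. The alternatives were other filters, scalings and tests, all probes of a gene, a replicate block and leaving out arrays. Python 3.11.15 with matplotlib 3.10.9 made the figures.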

Additional observations from a re-analysis of the deposited data

Results flagged for a closer look

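Among 80 groups of 4 arrays, 2 for each of the 40 genes that the rule names, 5 held an array far from the other 3 by Dixon's criterion (gap over range above the 95% critical value for 4 samples), where chance gives about 1 in 20. *Psma3* had 5.08 on WT 1 against 5.32 to 5.37 on the other WT arrays (gap over range 0.833). *Psmg4* had 0.89 on βUCP2Tg 2 against 0.50 to 0.54 on the rest of its group (0.885). *Psmb6* had 5.61 on βUCP2Tg 2 against 5.42 to 5.44 (0.910). On βUCP2Tg 4, *Maff* had 1.40 against 0.45 to 0.52 (0.924), and *Ubqln2* had 4.35 against 4.59 to 4.61 (0.911). Why these arrays differ was not tested.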

How the results depend on the processing

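No member was called under any scaling, filter, test or left-out array tried, except with the mean of all tested probes of a gene, under which 1 member was called lower (*Psmf1*, at -0.71, the reverse of its brightest probe), 7 members were lower at an unadjusted p under 0.05 and 7 had groups entirely lower, against 14.3% and 7.75% of all genes in that setting; this follows from the dimmer probes being averaged in. The -0.71 takes in a probe at background on all βUCP2Tg arrays. With the mean only of probes above background on all 8 arrays, chosen after seeing the data, *Psmf1* was at -0.16, no member was called, and 5 members were lower at an unadjusted p under 0.05 and 5 entirely lower, against 15.0% and 8.0% of all genes. Members higher at an unadjusted p under 0.05 numbered 2 in place of 1 under quantile normalization, a 75th percentile taken only over probes above background on every array, normexp and limma with an intensity trend. In these settings 12.2% to 15.8% of all genes by their brightest probe were higher. Members lower numbered 1 under quantile normalization, 0 under scaling to the median and 5 under the methods' t-test. The shares of all genes that were lower were 9.61%, 8.2% and 11.6% in these settings. Non-overlapping members numbered 4 higher under quantile normalization, 1 higher and 1 lower under normexp, and 1 lower under scaling to the median. Of all genes, 8.24% lay entirely higher under quantile normalization and 4.58% entirely lower under scaling to the median. Under normexp 5.34% lay entirely higher and 11.8% entirely lower. The members' median was 0.05 under quantile normalization and 0.04 under scaling to the median, in place of -0.02. With the mean of all tested probes of a gene 14 members lay above 0 and 30 below, where the median over all genes was 0.0016. The cause of these shifts was not tested. Leaving out each array in turn gave 1 to 2 members higher and 1 to 2 lower at an unadjusted p under 0.05, 2 to 3 entirely higher and 3 to 7 entirely lower (7 without WT 1 and 6 without βUCP2Tg 2, where 14.0% and 7.43% of all genes lay entirely lower), a median log2 fold change of the members from -0.05 to 0.03, and 0 to 3 called genes around the proteasome (3 without WT 1, 1 without βUCP2Tg 4, all lower, where 4.55% and 2.14% of all genes by their brightest probe were called lower). With single arrays left out, 7.91% to 21.3% of all genes were higher and 7.91% to 15.1% lower at an unadjusted p under 0.05. Without βUCP2Tg 4 and WT 1 together, 2 members were higher and 3 lower at that p, where 23.8% and 16.5% of all genes were. Groups did not overlap for 7 members that were higher and 7 that were lower, against 27.3% and 19.3% of all genes. Around the proteasome 3 genes were then called, where 6.46% of all genes were called lower. With the replicate number as a block, 1 member was lower at an unadjusted p under 0.05, against 10.5% of all genes, and none was called. The numbers gave no sign of pairing: deviations of same-numbered arrays correlated at 0.44, -0.05, -0.01 and -0.24. Only 1 of the 4 βUCP2Tg arrays matched its own number best. So few arrays cannot show that the samples are unpaired. Of 798 values of named genes under the alternatives, 793 kept their call and direction, where a change of sign counts only with an unadjusted p under 0.05; 4 became called (*Maff* and *Mafk*, without WT 1 and without both arrays) and 1 was reversed (*Psmf1*, above). A further 36 values changed sign without reaching that p. Array signal limits *Psma8*, *Psmb11* and the dim *Psmf1* probe.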
